A study of Homo sapiens with 8 samples.

Results

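The clade B serpins are the family of mostly intracellular serine protease inhibitors that includes the squamous cell carcinoma antigens and maspin. The members were chosen by gene symbol: 10 clade B serpin genes were listed, and a probe set was used if the platform annotation gave it 1 gene symbol. Of the 10 genes, 8 had such a probe set (21 probe sets in all), among 19775 genes with a probe set on the array. SERPINB2 and SERPINB6 were not analysed here. Of the 8 measured genes, 6 passed the filter on low values and were tested among 14180 genes: SERPINB1, SERPINB3, SERPINB5, SERPINB7, SERPINB8 and SERPINB13. SERPINB4 and SERPINB9 stayed below it on the mean of all arrays. The filter value was a log2 expression value of 4.46, and values under it are treated below as near background, although no detection call stands behind it.

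Expression was measured on 8 Affymetrix arrays of sublines of KYSE30 and KYSE180, established human lines of oesophageal squamous cell carcinoma, a tumour of the stratified epithelium that lines the gullet. Cells of both lines were taken through 4 rounds of transwell selection, in which cells either cross a porous membrane or stay above it. The groups were 180D (KYSE180 cells that crossed, labelled as the more motile), 180U (KYSE180 cells that stayed), 30D (KYSE30 cells that crossed) and 30U (KYSE30 cells that stayed), with 2 arrays a group. All sublines were grown for 2 passages after harvest before RNA was taken, so that the values are those of cultured sublines and not of migrating cells. Each D subline shared 1 of 4 parental populations with a U subline. No group was an unselected parental culture, so a D minus U difference does not show which of the 2 fractions moved away from the parental line. Where a gene is said below to rise or fall in D, it was only higher or lower there than in U. With 2 arrays a group, the number of arrays limits the precision of every value.

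A serpin presents an exposed loop that its target protease cleaves, and the cleaved loop then inserts into the body of the serpin and traps the protease in an inactive state. Clade B serpins lack a classical secretion signal and act mostly inside the cell, where they protect it from its own lysosomal proteases and from proteases delivered by immune cells. In stratified squamous epithelium several of them mark the differentiating layers, and the serum level of the squamous cell carcinoma antigens SERPINB3 and SERPINB4 is used to follow squamous tumours.

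In the RefSeq gene order the listed genes form a pair of clusters. SERPINB1, SERPINB9 and SERPINB6 lie side by side on chromosome 6. On chromosome 18 the order is SERPINB5, SERPINB12, SERPINB13, SERPINB4, SERPINB3, SERPINB11, SERPINB7, SERPINB2, SERPINB10 and SERPINB8. SERPINB3 and SERPINB4 are near-identical neighbours, and the 250 bases before their annotated start sites are shown to compare the pair there. These bases lie before the start of the transcript, so they do not show how far the array can tell the genes apart. Transcript and probe sequences were not compared. The sequences are from RefSeq, build GRCh38.p14, written 5′ to 3′ on the strand of the gene: SERPINB3 at chr18:63661894-63662143 and SERPINB4 at chr18:63644257-63644506, both on the minus strand. Capitals mark the bases that differ between the pair.
SERPINB3: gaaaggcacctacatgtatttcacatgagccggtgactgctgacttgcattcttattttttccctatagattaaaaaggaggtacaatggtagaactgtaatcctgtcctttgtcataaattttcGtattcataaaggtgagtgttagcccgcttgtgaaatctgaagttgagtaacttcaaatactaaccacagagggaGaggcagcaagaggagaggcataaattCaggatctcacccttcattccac
SERPINB4: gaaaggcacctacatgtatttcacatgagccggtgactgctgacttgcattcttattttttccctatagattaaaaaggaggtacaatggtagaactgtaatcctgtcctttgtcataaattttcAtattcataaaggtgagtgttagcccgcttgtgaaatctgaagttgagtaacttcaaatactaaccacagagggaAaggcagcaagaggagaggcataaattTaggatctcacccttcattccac
The windows differed at 3 of 250 bases, an identity of 98.8%. The differences are G126A, G201A and C228T, with the SERPINB3 base first and positions counted from 1 at the 5′ end.

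The windows of SERPINB13, at chr18:63587093-63587342 on the plus strand, and SERPINB8, at chr18:63969831-63970080 on the plus strand, are shown because SERPINB13 had the largest lower bound on a fold between the lines among the members tested and SERPINB8 the smallest adjusted p between D and U. Capitals mark matches to a motif.
SERPINB13: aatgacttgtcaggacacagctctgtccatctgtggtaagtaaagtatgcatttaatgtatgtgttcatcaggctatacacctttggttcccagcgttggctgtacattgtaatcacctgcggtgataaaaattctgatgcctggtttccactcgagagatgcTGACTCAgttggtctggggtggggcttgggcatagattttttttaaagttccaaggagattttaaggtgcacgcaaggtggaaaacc
SERPINB8: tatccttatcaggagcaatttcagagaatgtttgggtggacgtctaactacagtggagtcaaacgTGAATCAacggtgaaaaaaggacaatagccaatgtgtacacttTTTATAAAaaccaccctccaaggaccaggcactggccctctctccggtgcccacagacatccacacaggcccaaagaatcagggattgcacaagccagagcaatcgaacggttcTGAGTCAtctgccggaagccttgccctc
Motifs searched on both strands, with overlapping matches counted, were the AP-1 motif TGANTCA, the GC box GGGCGG and the TATA box TATAAA. SERPINB13 held 1 AP-1 match, at bases 164 to 170. SERPINB8 held 2 AP-1 matches and 2 overlapping TATA box matches, 1 on each strand. SERPINB5 held 1 AP-1 match and 2 GC boxes, SERPINB1 held 2 GC boxes, SERPINB9 held 2 GC boxes and 1 TATA box, and SERPINB3, SERPINB4 and the first listed start site of SERPINB7 held no match to these letters. SERPINB7 has 3 listed start sites, and the second and the third held 2 AP-1 matches each, the third also 2 TATA boxes. Of 35116 promoter windows of the same length, 6.57% held an AP-1 match, 42.6% a GC box and 10.7% a TATA box. These matches describe the letters of the windows only.

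Replicate arrays of a group correlated at 0.997 to 0.998 over the 14180 genes tested, those of D and U within a line at 0.992 to 0.995, and pairs across the lines at 0.860 to 0.869. The 180D replicate 1 array stood apart in RNA quality: the 3′ minus 5′ difference of the actin control probe sets was 1.92 on the log2 scale there and 1.06 to 1.42 on the other arrays, so the D minus U calls in KYSE180 are also given without it. Of 9 measured squamous epithelium markers, 9 were above the filter value in 180D and in 180U, and 8 in 30D and in 30U. The basal keratin KRT14 was below the filter value in KYSE30, with means of 4.13 in 30D and 3.54 in 30U, against 13.38 in 180D and 13.62 in 180U. The mean of the 9 markers on each array was 11.08 to 11.09 in 180D, 11.30 to 11.34 in 180U, 7.18 to 7.32 in 30D and 7.30 to 7.34 in 30U. It was thus higher in KYSE180, as were several serpins below, and slightly lower in 180D than in 180U, as were SERPINB3 and SERPINB1. Its part in those results was not tested. Of 8 measured fibroblast markers 3 were above the filter value in every group, of 8 immune cell markers 1 or 2, and of 6 endothelial markers 4 or 5. The mean of the fibroblast markers was 4.40 to 4.44 in 180D, 4.21 to 4.32 in 180U, 4.16 to 4.21 in 30D and 4.22 in 30U. The collagen gene COL1A1 was higher in 180D by 0.58 (adjusted p = 0.035), a call that did not pass in 7 of the 8 fits without 1 array, among them the fit without 180D replicate 1 (adjusted p = 0.11), and its part in the KYSE180 results was not tested.

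The serpins that in other work inhibit lysosomal cysteine proteases, SERPINB3 and SERPINB13, were both present in KYSE180 and below the filter value in KYSE30. SERPINB3, squamous cell carcinoma antigen, an inhibitor of cathepsins L, K and S, had log2 expression values of 7.98 and 8.05 in 180D, 9.33 and 9.38 in 180U, 3.57 and 3.34 in 30D, and 3.55 and 2.87 in 30U. The 180U arrays were highest, the 180D arrays lay clearly below them, and the KYSE30 groups overlapped. SERPINB13, also called headpin or hurpin, an inhibitor of cathepsins L and K, had 10.09 and 10.07 in 180D, 10.03 and 10.02 in 180U, 3.15 and 3.44 in 30D, and 3.14 and 2.85 in 30U. Its 180D and 180U arrays lay within 0.1 log2 of each other, far above both KYSE30 groups.

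SERPINB1 and SERPINB8, which act on serine proteases, were above the filter value in both lines. SERPINB1, an inhibitor of neutrophil elastase and cathepsin G, had 8.20 and 8.26 in 180D, 8.54 and 8.59 in 180U, 7.63 and 7.75 in 30D, and 7.66 and 7.62 in 30U. Its order was 180U, 180D and then the KYSE30 groups, which overlapped. SERPINB8, an inhibitor of the proprotein convertase furin whose loss causes a peeling skin disorder, had 6.53 and 6.73 in 180D, 6.96 and 6.98 in 180U, 6.40 and 6.31 in 30D, and 5.42 and 5.44 in 30U. Its lowest group was 30U, the only group with arrays under a log2 value of 6 for this gene, and no groups overlapped.

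SERPINB5, or maspin, which lacks protease inhibitor activity and was described as a tumour suppressor of the breast, had log2 values of 11.11 and 10.97 in 180D, 10.95 and 10.94 in 180U, 9.94 and 9.92 in 30D, and 9.57 and 9.54 in 30U. No groups overlapped, and 180D and 180U were closest. SERPINB7, or megsin, an epidermal and mesangial serpin whose loss causes a palmoplantar keratosis, was low in all groups, at 5.39 and 5.15 in 180D, 5.53 and 5.49 in 180U, 5.27 and 5.31 in 30D, and 4.88 and 5.14 in 30U. Its 180D and 30D arrays overlapped. Probe sets of different genes differ in how brightly they bind, so these values order the groups within a gene and not the genes.

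The 2 measured members below the filter value were low in every group. SERPINB4, the near-identical neighbour of SERPINB3 and an inhibitor of cathepsin G and mast cell chymase, had 3.13 and 3.13 in 180D, 4.22 and 3.19 in 180U, 2.27 and 2.36 in 30D, and 2.27 and 1.84 in 30U. Only 180U replicate 1 stood out, still under the filter value. SERPINB9, the inhibitor of granzyme B, the protease by which cytotoxic lymphocytes kill, had 3.68 to 3.96 over the 8 arrays, and no group stood apart by more than the spread within 180D or 180U. SERPINB10, SERPINB11 and SERPINB12, clade B genes outside the list, were also below the filter value, with group means of 2.68 to 2.76, 2.59 to 2.82 and 3.15 to 3.24.

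**Figure D1:**
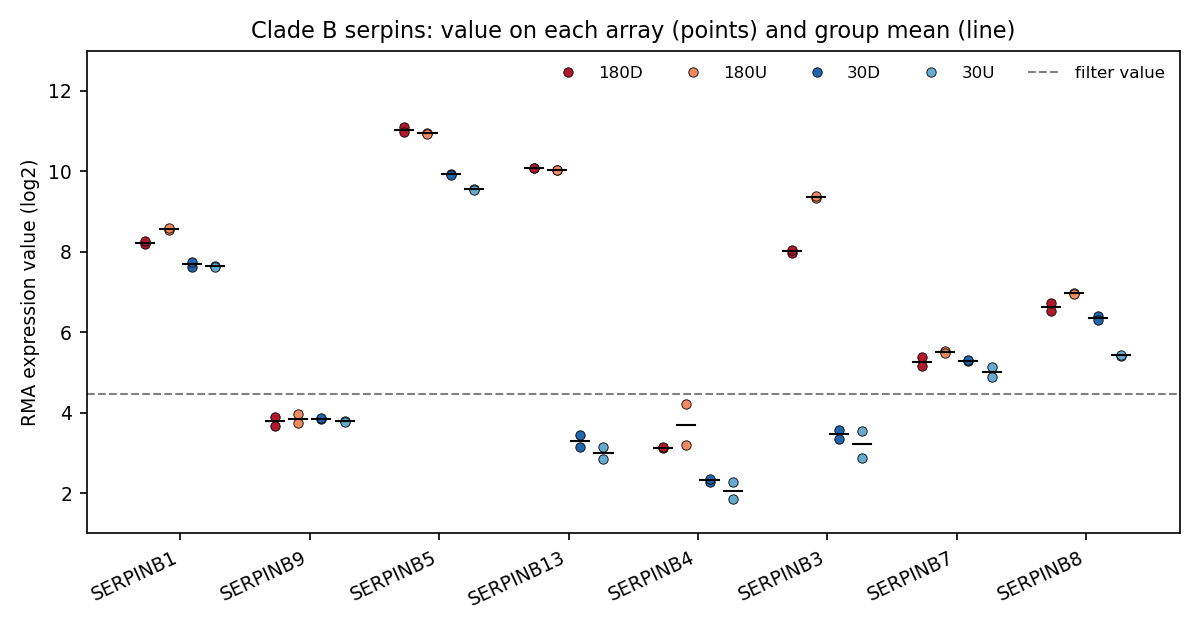
RMA expression value (log2) of each measured clade B serpin on each array (points) with the group mean (line), in 180D, 180U, 30D and 30U, and the filter value of 4.46 (dashed). SERPINB13 and SERPINB3 were above the filter value only in KYSE180, and SERPINB4 and SERPINB9 were below it on all 8 arrays.

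The study's main question was what distinguishes the sublines that crossed the membrane from those that did not. In KYSE30, SERPINB8 and SERPINB5 were higher in the crossing sublines than in those that stayed, and no tested member passed as lower. SERPINB8 was 0.92 ± 0.08 higher in 30D than in 30U on the log2 scale (SE, 2 arrays a group), a 1.90-fold difference with an adjusted p of 0.000612. SERPINB5 was 0.38 ± 0.06 higher, 1.30-fold, with an adjusted p of 0.00752. These are tests in limma with Benjamini-Hochberg adjustment over 14180 genes. The 30D mean of SERPINB8, 6.36, lay closer to the KYSE180 means of 6.63 and 6.97 than to the 30U mean of 5.43.

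Of the 6 members tested, 2 passed as higher in 30D and 0 as lower, while 16.5% of all genes tested passed in this comparison, 8.42% as higher and 8.12% as lower. At an unadjusted p under 0.05, 4 were higher and 0 lower. The median change of the 6 was 0.29, against 0.01 over all genes tested. The 4 include SERPINB13, and the median includes SERPINB13 and SERPINB3, both below the filter value in KYSE30. SERPINB7 differed by 0.28 ± 0.10 (adjusted p = 0.114) and SERPINB1 by 0.05 ± 0.06 (adjusted p = 0.619), both short of the threshold. SERPINB13, 0.31 ± 0.12 (adjusted p = 0.125), and SERPINB3, 0.25 ± 0.20 (adjusted p = 0.449), were below the filter value in both KYSE30 groups, so these changes concern signals near background. SERPINB3 passed there without 30U replicate 1 (0.59, adjusted p = 0.0335). SERPINB8 ranked 118 and SERPINB5 ranked 1256 of 14180 genes by the size of the change.

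For the probe set used, the rise of SERPINB8 passed with each array left out in turn and in each other alternative tried. The average of both probe sets was fitted on all 8 arrays only, and passed there. Over these limma fits adjusted p ran from 2.73e-05 to 0.00924. The rise of SERPINB5 did not pass without 30U replicate 2 (adjusted p = 0.0591) or without 30D replicate 1 (adjusted p = 0.0559). Its adjusted p ran from 0.00014 to 0.0591 over the alternatives. SERPINB8 has a second probe set, which did not show the change: it read 5.20 and 5.09 in 30D, 5.15 and 5.34 in 30U, a difference of -0.09 ± 0.15 (adjusted p = 0.755). With the probe sets of a gene averaged, the change of SERPINB8 was 0.41 (adjusted p = 0.00924). In such bulk samples, a rise of a gene in each cell and a larger share of cells that express it cannot be told apart.

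In KYSE180, SERPINB3 and SERPINB1 were lower in the crossing sublines than in those that stayed, and no tested member passed as higher. SERPINB3 was lower in 180D than in 180U by a log2 difference of -1.34 ± 0.20, with a fold of 2.54 and an adjusted p of 0.0146. SERPINB1 was lower by a log2 difference of -0.34 ± 0.06, with a fold of 1.26 and an adjusted p of 0.0321. SERPINB3 ranked 27 of 14180 genes by the size of the change. Without 180D replicate 1, the array that stood apart, the difference of SERPINB3 was -1.30 with an adjusted p of 0.0985, and that of SERPINB1 was -0.31 with an adjusted p of 0.128.

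Of the 6 members tested, 0 passed as higher in 180D and 2 as lower, while 3.75% of all genes tested passed, 2.55% as higher and 1.21% as lower. At an unadjusted p under 0.05, 0 were higher and 3 lower. The split over all genes depends on the scaling: 361 genes were higher and 171 lower in 180D as deposited, and 269 higher and 236 lower with each array centred on its median, which left the adjusted counts of members as they were. The median change of the 6 was -0.29, against 0.02 over all genes tested. SERPINB8 differed by -0.34 ± 0.08 (adjusted p = 0.0588) and SERPINB7 by -0.24 ± 0.10 (adjusted p = 0.266). SERPINB5 differed by 0.09 ± 0.06 (adjusted p = 0.466) and SERPINB13 by 0.06 ± 0.12 (adjusted p = 0.843), although SERPINB13 lies close to SERPINB3 in the same cluster.

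The calls in KYSE180 rested on all of its arrays. That of SERPINB3 did not pass with any 1 of the 4 KYSE180 arrays left out: adjusted p was 0.0985 and 0.0556 without 180D replicates 1 and 2, and 0.0762 and 0.0924 without 180U replicates 1 and 2. The difference itself stayed at -1.38 to -1.30 in these fits, and adjusted p ran from 0.000339 to 0.0985 over all alternatives. That of SERPINB1 did not pass with any 1 of the 8 arrays left out (adjusted p from 0.0507 to 0.128) or with the parental population as a replicate block (adjusted p = 0.107), which left SERPINB3 as the 1 member called. SERPINB8 passed as lower without 180D replicate 2, with a difference of -0.44 and an adjusted p of 0.0297.

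**Figure D2:**
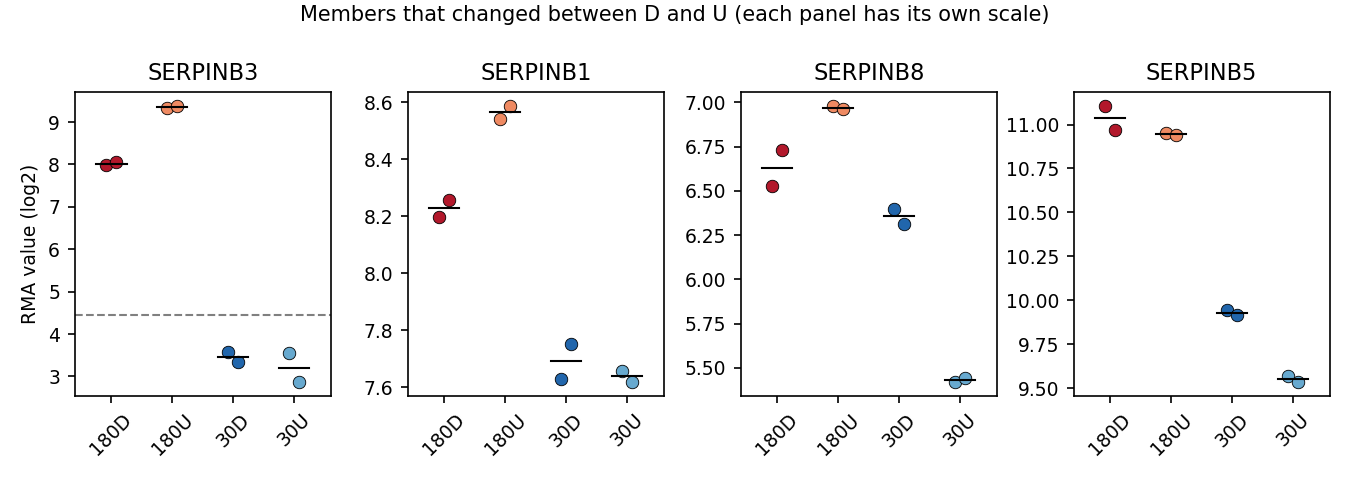
RMA expression value (log2) on each array (points) with the group mean (line) for SERPINB3, SERPINB1, SERPINB8 and SERPINB5 in 180D, 180U, 30D and 30U, each panel with its own scale, and the filter value (dashed) where it falls in range. SERPINB3 and SERPINB1 were lower in 180D than in 180U, and SERPINB8 and SERPINB5 higher in 30D than in 30U.

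The D minus U change differed between the lines for SERPINB8, SERPINB3 and SERPINB1, by the test of the difference itself. The change in KYSE180 minus that in KYSE30 was -1.26 ± 0.11 for SERPINB8 (adjusted p = 0.000867), -1.59 ± 0.28 for SERPINB3 (adjusted p = 0.0135) and -0.39 ± 0.09 for SERPINB1 (adjusted p = 0.0299). For SERPINB3 the KYSE30 side of this difference was below the filter value. Of the 6 members, 0 passed as higher and 3 as lower, while 12.2% of all genes tested passed, 6.94% as higher and 5.21% as lower. At an unadjusted p under 0.05, 0 were higher and 5 lower.

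The median difference of the 6 was -0.46, against 0.01 over all genes tested. It includes SERPINB3 and SERPINB13, whose KYSE30 side was below the filter value. SERPINB7, at -0.52 ± 0.15 (adjusted p = 0.0628), SERPINB5, at -0.29 ± 0.09 (adjusted p = 0.0755), and SERPINB13, at -0.25 ± 0.17 (adjusted p = 0.372), did not pass. For the probe set used, the difference of SERPINB8 passed in each alternative tried. The average of both probe sets, fitted on all 8 arrays only, passed there too. Over these limma fits adjusted p ran from 4.24e-05 to 0.011. That of SERPINB3 did not pass without 30D replicate 1 (adjusted p = 0.0515) or 180U replicate 2 (adjusted p = 0.0513). That of SERPINB1 did not pass without any 1 of 180D replicate 1, both 180U replicates, 30D replicate 2 and both 30U replicates, with adjusted p up to 0.111, or with a replicate block of parental populations (adjusted p = 0.081). SERPINB5 passed without 180D replicate 1 (adjusted p = 0.0395), and SERPINB7 passed without 180D replicate 1 (adjusted p = 0.0472) or 30U replicate 2 (adjusted p = 0.0498). The SERPINB8 difference rested on 1 of its 2 probe sets: the other gave 0.06 ± 0.21 (adjusted p = 0.91), and the average of the probe sets gave -0.60.

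**Figure D3:**
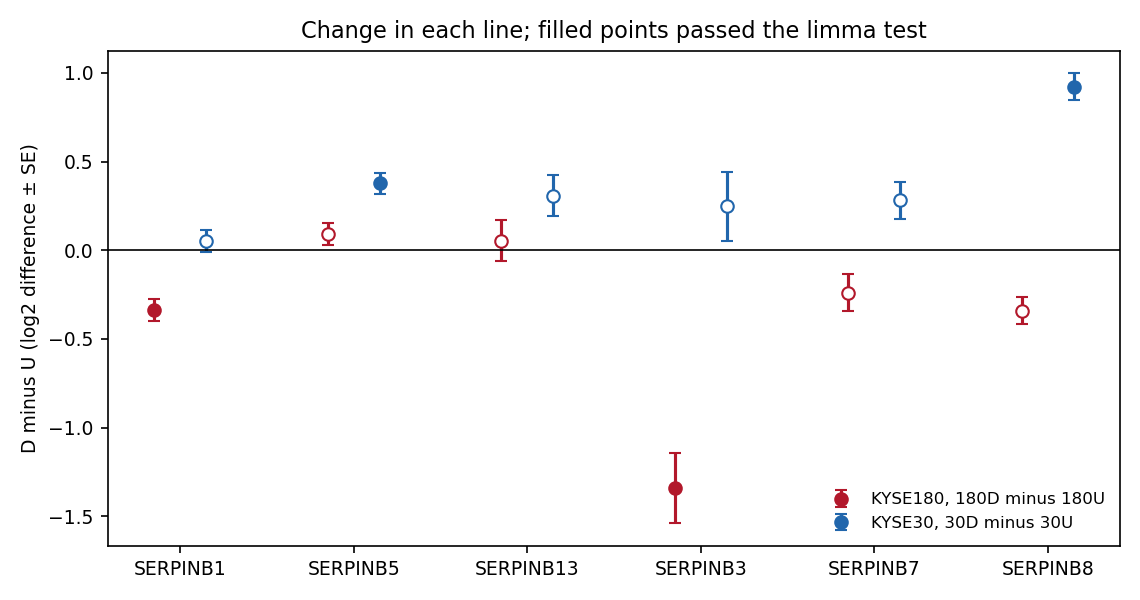
D minus U difference (log2, ± SE) of the 6 tested clade B serpins in KYSE180 and in KYSE30, 2 arrays a group; filled points passed the limma test at an adjusted p of 0.05. SERPINB8 lies at -0.34 in KYSE180 and at 0.92 in KYSE30, and SERPINB3 at -1.34 in KYSE180.

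The largest differences in the family lay between the lines. SERPINB13 averaged 10.05 in KYSE180 and 3.14 in KYSE30, and SERPINB3 averaged 8.69 in KYSE180 and 3.33 in KYSE30 (4 arrays a line). Measured from the filter value, SERPINB13 was at least 48.4-fold higher in KYSE180, and SERPINB3 at least 18.8-fold higher. Both KYSE30 means were below the filter value, so these folds are lower bounds and no exact difference is given. The genes passed the filter only through KYSE180 and so had to differ, and no p-value is given for them here.

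The members expressed in both lines differed less. SERPINB5 was 2.38-fold higher in KYSE180, at 10.99 against 9.74 in KYSE30, a log2 difference of 1.25 ± 0.07 (adjusted p = 6.05e-07). SERPINB8 was 1.87-fold higher, at 6.80 against 5.89 in KYSE30, a log2 difference of 0.91 ± 0.23 (adjusted p = 0.00709). This is an average over fractions that differed, since the D minus U change of SERPINB8 was not the same in both lines. Its group means were 6.63 in 180D against 6.36 in 30D, and 6.97 in 180U against 5.43 in 30U. SERPINB1 was 1.66-fold higher, at 8.40 against 7.66 in KYSE30, a log2 difference of 0.73 ± 0.08 (adjusted p = 6.05e-05). SERPINB7, at 5.39 against 5.15 in KYSE30, differed by 0.24 ± 0.12 and did not pass (adjusted p = 0.0993). Without 180D replicate 2 its difference was 0.34 and passed. With the parental population as a random block in limma it passed as well (0.24 ± 0.09, adjusted p = 0.032). That fit used a negative consensus correlation within populations, -0.37, and no gain from the pairing is read from it.

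Of the 6 members, 5 passed as higher in KYSE180 and 0 as lower, while 67.1% of all genes tested passed, 36.1% as higher and 31.0% as lower. Their median difference was 1.08, against 0.05 over all genes tested. SERPINB3 and SERPINB13 passed the filter only through KYSE180 and so had to differ, and nothing is read from the count or the median. The differences of SERPINB1, SERPINB5 and SERPINB8 passed with each array left out. Averaging the probe sets of a gene gave log2 differences of 0.56 for SERPINB8 and 0.43 for SERPINB1, and the second SERPINB8 probe set alone gave 0.21 (adjusted p = 0.108).

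**Figure D4:**
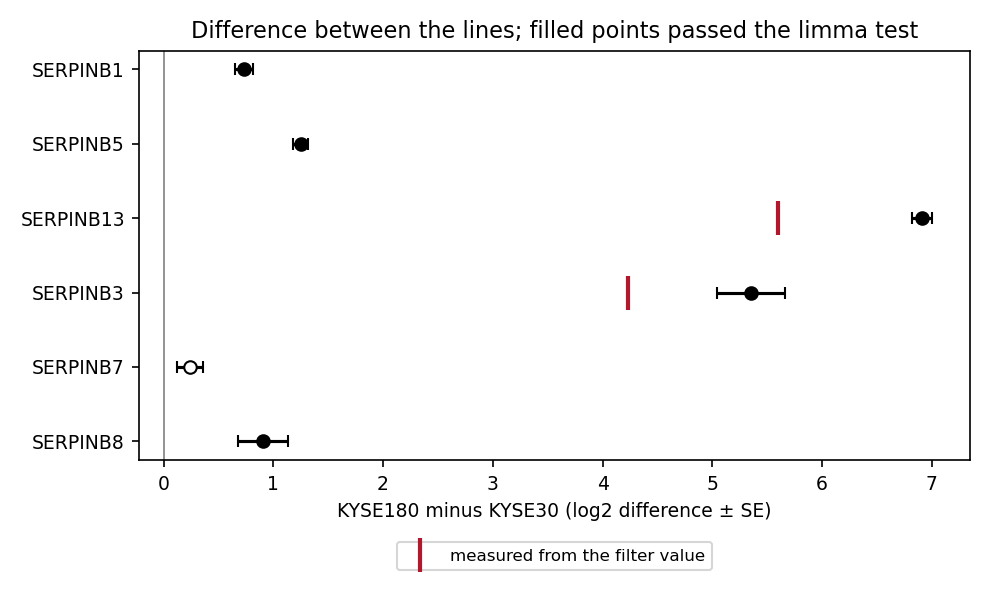
Difference between the lines (KYSE180 minus KYSE30, log2, ± SE) of the 6 tested clade B serpins; filled points passed the limma test, and red bars mark the difference measured from the filter value where KYSE30 was below it. The points of SERPINB13 and SERPINB3, at 6.91 and 5.35, are set against KYSE30 signals below the filter value, and the other members lie at 1.25 or less. Both genes passed the filter only through KYSE180 and so had to differ.

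Other probe sets bear on which transcripts were read. The probe set used for SERPINB3 is of a kind whose probes can also bind related transcripts, and reads of SERPINB3 and SERPINB4 RNA cannot be told apart with it. The second SERPINB3 probe set read 6.76 and 7.07 in 180D, 8.51 and 8.74 in 180U, 2.53 and 2.37 in 30D, and 2.19 and 2.75 in 30U. In a fit of all probe sets past the filter it was lower in 180D by a log2 difference of -1.71 ± 0.19 (adjusted p = 0.0093). A probe set annotated to both SERPINB3 and SERPINB4 read 6.57 and 6.62 in 180D, 7.32 and 7.50 in 180U, with means of 4.88 in 30D and 4.73 in 30U, and had a difference of -0.82 ± 0.11 between 180D and 180U (adjusted p = 0.0153). The probe sets annotated to SERPINB3 were thus all lower in 180D than in 180U, while the single SERPINB4 probe set stayed below the filter value. Without the filter, SERPINB4 differed in the same direction, by -0.57 ± 0.30 (limma, adjusted p = 0.438). That difference did not pass and concerns signals near background.

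SERPINB1 has 4 probe sets past the filter, and their differences between 180D and 180U ran from -0.51 to -0.10. In the fit of all probe sets the one with the largest change passed (-0.51 ± 0.08, adjusted p = 0.0279). The probe set used above (-0.34 ± 0.07, adjusted p = 0.0636) and the remaining ones (-0.39 ± 0.07, adjusted p = 0.0599, and -0.10 ± 0.10, adjusted p = 0.665) did not. SERPINB13 has 6 probe sets, 4 of them past the filter. These 4 averaged 10.08, 8.72, 6.55 and 6.14 in 180D and 10.03, 8.77, 6.30 and 5.86 in 180U, against 1.97 to 3.74 in 30D and 2.11 to 3.25 in 30U, where all were below the filter value. Near background in KYSE30, one of them passed as higher in 30D (0.49 ± 0.10, adjusted p = 0.0248), while another read -0.14 ± 0.08 (adjusted p = 0.3). The other probe set of SERPINB5 was below the filter value.

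**Figure D5:**
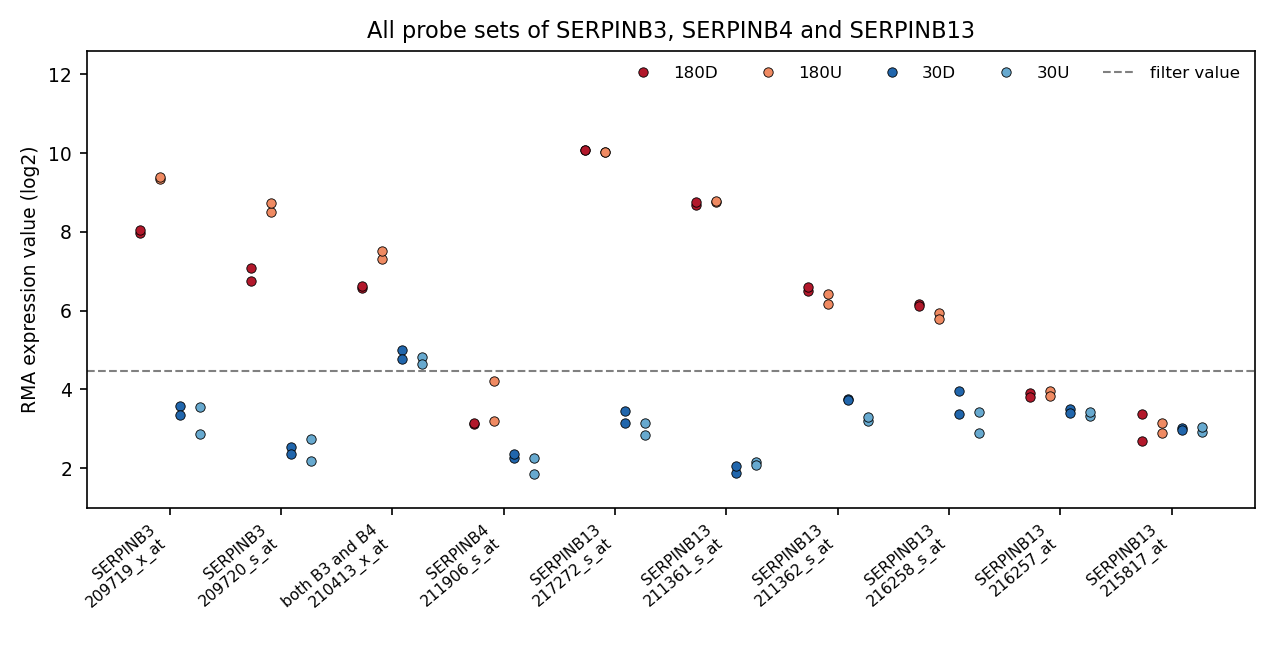
RMA expression value (log2) on each array of every probe set of SERPINB3, SERPINB4 and SERPINB13 and of the probe set annotated to both SERPINB3 and SERPINB4, in 180D, 180U, 30D and 30U, with the filter value (dashed). The SERPINB3 probe sets and the shared one were lower in 180D than in 180U, and 4 of 6 SERPINB13 probe sets were past the filter.

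Proteases that clade B serpins inhibit were taken as a list of 15 genes, of which 10 were tested. In 30D, 2 were higher and 0 lower (2 and 0 at an unadjusted p under 0.05), with a median of -0.06 against 0.01 over all genes tested, of which 16.5% passed. CTSS, the cysteine protease cathepsin S that SERPINB3 inhibits, rose by 0.72 ± 0.08 (adjusted p = 0.00192). PLAU, urokinase plasminogen activator, a serine protease of matrix breakdown that SERPINB2 inhibits, rose by 0.67 ± 0.09 (adjusted p = 0.00348), with group means of 10.91 in 30D and 10.24 in 30U.

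In 180D, 2 of these 10 proteases were higher and 0 lower (3 and 0 at an unadjusted p under 0.05), with a median of 0.05 against 0.02 over all genes tested, of which 3.75% passed. PLAT, tissue plasminogen activator, another target of SERPINB2, rose to 4.96 in 180D, against 3.17 in 180U, below the filter value, which gives an at least 1.42-fold difference (adjusted p = 8.09e-05, and 0.00192 without 180D replicate 1). CTSS rose by 0.52 ± 0.08 (adjusted p = 0.0161), a call that was lost whichever KYSE180 array was left out, with adjusted p up to 0.0931 (0.0888 without 180D replicate 1), and with the parental populations blocked (adjusted p = 0.0698). Between the lines, 2 of the 10 were higher and 6 lower in KYSE180, with a median of -0.29 against 0.05 over all genes tested, of which 67.1% passed. PLAT was below the filter value in 180U, near it in 180D and well above it in both KYSE30 groups. It passed the filter mainly through KYSE30, so nothing is read from the count or the median. PLAU averaged 5.74 in 180D and 5.76 in 180U, against 10.91 in 30D and 10.24 in 30U, a log2 difference of -4.82 between the lines. The granule proteases of immune cells ELANE, PRTN3, CMA1 and GZMB, targets of SERPINB1, SERPINB4 and SERPINB9, were below the filter value. CTSG, the granule protease cathepsin G, was above it, with means of 5.87 in 180D, 5.82 in 180U, 5.70 in 30D and 5.79 in 30U.

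Of 21 listed serpins of other clades, 10 were tested. In 30D 1 was higher and 2 lower, in 180D 1 was higher and 0 lower (1 and 1 at an unadjusted p under 0.05), and between the lines 2 were higher and 2 lower in KYSE180. Their medians were 0.08, -0.12 and 0.11, against 0.01, 0.02 and 0.05 over all genes tested, of which 16.5%, 3.75% and 67.1% passed. SERPINF1, the secreted pigment epithelium-derived factor, differed in its change between the lines by 0.89 ± 0.12 (adjusted p = 0.00576): the D minus U change was 0.41 ± 0.09 in KYSE180 (adjusted p = 0.0482) and -0.47 ± 0.09 in KYSE30 (adjusted p = 0.0116). The call in KYSE180 did not pass in 6 of the 8 fits without 1 array (adjusted p up to 0.172, without 180D replicate 1) or with the block (adjusted p = 0.118), and that in KYSE30 not without 30D replicate 2 or 30U replicate 2 (adjusted p up to 0.0748). SERPINI1, neuroserpin, an inhibitor of tissue plasminogen activator, was higher in KYSE180 by 3.57 on the log2 scale.

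Of 14 other epithelial protease inhibitors tested, 5 were higher and 1 lower in 30D, and 1 was higher and 0 lower in 180D (4 and 4 at an unadjusted p under 0.05). The medians were 0.10 in 30D and -0.03 in 180D, against 0.01 and 0.02 over all genes tested, of which 16.5% passed in 30D and 3.75% in 180D. SLPI, the secretory leukocyte protease inhibitor, rose by 1.07 ± 0.06 in 30D (adjusted p = 0.000136), and CST6, cystatin M, rose by 0.56 ± 0.08 (adjusted p = 0.00534). TFPI2, a matrix-associated inhibitor of plasmin and other proteases, fell in 30D by 0.70 ± 0.09 (adjusted p = 0.00318). SLPI differed in its change between the lines by -1.30 ± 0.09 (adjusted p = 0.000365). Between the lines, 5 of the 14 were higher and 8 lower in KYSE180, with a median of -0.71 against 0.05 over all genes tested, of which 67.1% passed. CSTA was below the filter value in KYSE30 and TFPI2 in KYSE180. Each passed the filter only through the other line and so had to differ, and nothing is read from the count or the median. CSTA, the cystatin of the cornified envelope, averaged 12.18 in 180D and 12.50 in 180U, against 2.93 in 30D and 2.98 in 30U, at least 237-fold higher in KYSE180. CST6 was lower in KYSE180 by a log2 difference of -6.50. Its KYSE180 signal was near background, at 4.76 in 180D and, below the filter value, 4.40 in 180U, so the size is not exact.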

How the data were processed

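Total RNA of 8 sublines was hybridised to Affymetrix arrays with 54675 probe sets. Per the submitters' processing notes, the authors used RMA, and the deposited values are on the log2 scale; RMA removes background, normalizes the arrays against each other and summarises the probes of each probe set. Its version was not given in the sources used here. Deposited values ran from 1.44 to 14.01. RMA makes array distributions alike and compresses dim signals, so folds of dim genes are understated.

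Gene names came from the platform annotation: 41091 probe sets had 1 symbol, 1801 several, 11721 none listed and 62 were controls. For 41037 of those with 1 symbol an Entrez ID match gave the current symbol, whether or not it had changed. A probe set was kept if its mean reached the 40th percentile of all (log2 value 4.46), and the brightest one stood for its gene. SERPINB2 and SERPINB6 were not analysed here.

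All 14180 genes and 8 arrays entered two-sided limma tests (lmFit, eBayes; version 3.58.1, R 4.3.3), called at a Benjamini-Hochberg adjusted p of 0.05. The script was tested on simulated data. The 4 group means gave D minus U in each line and the difference of these changes, while an additive model of line and fraction compared the lines. Where the mean of a single side of a comparison was below the filter value, a fold was measured from that value and given as "at least". Between the lines the side was the mean of the line. The labels' descriptions pair D and U sublines by parental population (30D-1 with 30U-1, 30D-2 with 30U-2, 180D-2 with 180U-1, 180D-1 with 180U-2). Deviations of paired arrays correlated at -0.02 in KYSE30 and 0.02 in KYSE180, and the pairing was tried as a replicate block. Between the lines that block was random, with a consensus correlation of -0.37 from the additive fit.

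The members and gene lists were chosen with earlier results of these data known. Genes outside the family were named if they were among the 4 smallest p of their list in a comparison and past the threshold. Exceptions, chosen after their values were seen, are CTSG and genes given as below the filter value. Alternatives changed the filter, the probe set, the scaling, the variance model, the block and the arrays.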

Additional observations from a re-analysis of the deposited data

Results flagged for a closer look

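The D minus U change differed between KYSE180 and KYSE30 for 3 clade B serpins by the test of the difference itself in limma (KYSE180 minus KYSE30, 2 arrays a group). SERPINB8 had a difference of -1.26 (adjusted p = 0.000867), with a change of -0.34 in KYSE180 and 0.92 in KYSE30. Its other probe set did not show this, at 0.06 ± 0.21 (adjusted p = 0.91). SERPINB3 had a difference of -1.59 (adjusted p = 0.0135), with a change of -1.34 in KYSE180 and 0.25 in KYSE30, where it was below the filter value. SERPINB1 had a difference of -0.39 (adjusted p = 0.0299), with a change of -0.34 in KYSE180 and 0.05 in KYSE30. No explanation was tested.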

How the results depend on the processing

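With the probe set used, no change of a tested member that passed changed its direction under the alternatives tried. The second SERPINB8 probe set read -0.09 in 30D against 30U and 0.06 in the difference of the changes, neither passing. Of the single-member values under the alternatives, 419 kept their side of the threshold, 13 moved past it and 32 no longer passed. In 180D against 180U, where 2 members passed, 1 passed with the parental population as a replicate block, without the filter, with the filter at the 20th percentile, with the arrays of the line alone and with all probe sets tested separately, 0 with array weights (3 at an unadjusted p under 0.05), and 3 with the filter at the 60th percentile or an intensity trend, with SERPINB8 added (adjusted p = 0.0316 and 0.0466). Testing all probe sets separately was chosen after seeing the data. Leaving out each array in turn gave 0 to 1 members there (3 to 4 at an unadjusted p under 0.05), 1 to 3 in 30D against 30U, where 2 passed, 1 to 4 in the difference of the changes, where 3 passed, and 5 to 6 between the lines, where 5 passed. With arrays centred on their medians, 5 members passed in the difference of the changes. The filter at the 60th percentile left SERPINB7 out. The replicate block changed no member's call other than those of SERPINB1 and, between the lines, SERPINB7. Without the filter, SERPINB4 was higher in KYSE180 by 1.23 ± 0.24 (adjusted p = 0.0022), with all groups below the filter value.

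Counts over all genes moved more. In 30D against 30U, 2346 genes passed, against 834 to 902 without a KYSE30 array and 3896 with array weights. In 180D against 180U, 532 passed, against 230 with the block, 311 without the filter, 195 with the line alone, 219 with array weights, 1069 with an intensity trend and 209 to 502 with an array left out. In the difference of the changes, 1723 passed, against 1011 with the block, 1142 without the filter, 2700 with the trend and 727 to 1702 with an array left out. The cause of these shifts was not tested.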

Other observations

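Genes whose pattern was most like that of a member were taken by the Pearson r of within-line deviations over the 8 arrays, given as a description, since the arrays share lines and groups. For SERPINB8 they were MICAL2, a flavin monooxygenase that depolymerises actin (r = 0.995), STX4, a plasma membrane syntaxin (r = 0.993), and FYN, a Src family kinase (r = 0.991). FYN had a D minus U change of -0.21 in KYSE180 and 0.87 in KYSE30, and MICAL2 of -0.20 in KYSE180 and 0.62 in KYSE30. For SERPINB3 they were IRAG2 (r = 0.978), with -1.09 in KYSE180 and 0.01 in KYSE30, RALGPS2 (r = 0.960) and MAP7 (r = 0.960). For SERPINB5 they were RGMB (r = 0.995), VPS28 (r = 0.994) and CD151, a tetraspanin that binds laminin-binding integrins (r = 0.992), which had 0.10 in KYSE180 and 0.40 in KYSE30.

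Genes next to the serpin clusters were also counted. Over all genes tested, 16.5% passed in 30D, 3.75% in 180D and 67.1% between the lines. Of 9 neighbours tested on chromosome 18, 2 were higher and 2 lower in 30D, 0 passed in 180D (2 higher and 0 lower at an unadjusted p under 0.05, limma), and 4 were higher and 3 lower in KYSE180 than in KYSE30, with a median of 0.11 between the lines against 0.05 over all genes tested. Among these neighbours, CDH19 and DSEL were below the filter value in KYSE180. They passed the filter only through KYSE30 and so had to differ, and nothing is read from the count or median between the lines. PHLPP1, a phosphatase of the kinase AKT, fell in 30D by 0.47 on the log2 scale (adjusted p = 0.00262). Of 7 neighbours tested on chromosome 6, 2 were higher and 0 lower in 30D, 1 was higher and 0 lower in 180D, and 6 were higher and 1 lower in KYSE180, with a median of 0.87 between the lines, while 36.1% of all genes tested were higher there. FOXF2, a forkhead transcription factor, was higher in KYSE180 by 2.26 on the log2 scale. Of 9 squamous markers tested, 0 passed as higher and 1 as lower in 180D (1 and 6 at an unadjusted p under 0.05, limma). The marker that passed was the stress keratin KRT16, which fell by 1.00 ± 0.10 (adjusted p = 0.00268) and also passed without 180D replicate 1. In 30D, 2 of the 9 passed as higher and 2 as lower, among the latter DSC3 at -1.28 ± 0.07 (adjusted p = 0.000113).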
